A study of Mus musculus with 24 samples.

Results

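The transcripts described here encode inflammatory, regulatory and IL-12 family cytokines of splenic dendritic cells (DCs), namely Il1a, Il1b, Tnf, Il10, Il12a, Il12b, Il15, Il18, Ebi3 and Tgfb1. They were taken as the probe sets whose single gene symbol in the platform's probe-to-gene table is 1 of these 10 names. This matching used no measured value, although the genes were chosen with earlier results of these data known. It gave 11 of the 22626 probe sets tested, with 2 for Il12b and 1 for each other gene. The arrays held RNA of splenic CD11c+ DCs, retained on magnetic beads, from BALB/c pups that by the study's methods were 14 days old. Asthma-at-risk pups were born to mothers in which ovalbumin (OVA) had induced asthma, and normal pups to control mothers. Naïve pups had received no allergen, while stimulated pups had received a single intraperitoneal injection of 5 µg of OVA with 1 mg of alum, on day 3 by the labels and on day 4 by the methods. Set 1 held 3 naïve normal arrays (AF76, AF77 and AF79), 4 naïve at-risk arrays (AF80 to AF83), 4 stimulated normal arrays (AF84 to AF87) and 4 stimulated at-risk arrays (AF88 to AF91). Set 2 held 4 stimulated normal arrays (AF118 to AF121) and 5 stimulated at-risk arrays (AF123 to AF127) whose RNA was NuGEN amplified and whose values were preprocessed apart, so levels were not compared across sets. The methods call the arrays of a group biological replicates. The sources used here do not say how many pups gave the RNA of an array. Nor do they say how many mothers or litters the arrays of a group came from. The p-values therefore measure the spread between arrays, which may be that of pups or of pools of pups. Asthma was induced in the mothers, so the p-values of the maternal comparisons may not measure the spread between mothers.

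Dendritic cells shape the response of T cells through the cytokines they secrete. IL-1α, IL-1β, IL-18 and TNF are inflammatory cytokines, of which IL-1β and IL-18 are made as precursors and cut by caspase-1 in the inflammasome, so their transcripts do not tell how much is released. IL-12 is a heterodimer of p35 (Il12a) and p40 (Il12b) that drives Th1 cells. The p35 chain also pairs with EBI3 to form IL-35, p40 with p19 to form IL-23, and EBI3 with p28 to form IL-27. IL-10 and TGF-β1 restrain DCs and T cells, and IL-15, shown by DCs on its receptor chain, maintains NK cells and memory CD8 T cells.

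Promoter sequences are shown for 4 of the 6 genes called lower in stimulated than in naïve normal pups, Il1a, Il1b, Tnf and Il12b, and for Il12a, called higher in stimulated at-risk DCs. Each is the 250 bases before the start of transcription in RefSeq (mouse build GRCm38.p6), 5′ to 3′ on the strand of the gene, where 8 of the 10 genes, all but Il10 and Il15, matched with 9 windows. Capitals mark matches to 4 motifs searched on both strands, TATAAA, the AP-1 site TGANTCA, the cAMP response element TGACGTCA and the NF-kB consensus. No capitals means that none of these letters is in the window.
Il1a (chr2:129309973-129310222, minus strand): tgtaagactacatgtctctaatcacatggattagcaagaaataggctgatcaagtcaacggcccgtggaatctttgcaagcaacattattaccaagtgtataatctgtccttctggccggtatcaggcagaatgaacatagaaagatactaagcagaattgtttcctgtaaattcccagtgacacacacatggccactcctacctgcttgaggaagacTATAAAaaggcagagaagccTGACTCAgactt
Il1b (chr2:129371140-129371389, minus strand): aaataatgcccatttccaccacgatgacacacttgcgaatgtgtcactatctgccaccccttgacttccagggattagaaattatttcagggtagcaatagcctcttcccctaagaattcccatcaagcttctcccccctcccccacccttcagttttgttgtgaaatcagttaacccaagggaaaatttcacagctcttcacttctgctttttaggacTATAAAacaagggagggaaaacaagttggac
Tnf (chr17:35202008-35202257, minus strand): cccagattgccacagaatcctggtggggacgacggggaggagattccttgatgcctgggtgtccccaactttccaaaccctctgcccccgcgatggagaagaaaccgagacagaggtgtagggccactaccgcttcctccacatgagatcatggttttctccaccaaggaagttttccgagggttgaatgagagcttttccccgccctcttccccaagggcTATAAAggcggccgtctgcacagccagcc
Il12b (chr11:44399813-44400062, plus strand): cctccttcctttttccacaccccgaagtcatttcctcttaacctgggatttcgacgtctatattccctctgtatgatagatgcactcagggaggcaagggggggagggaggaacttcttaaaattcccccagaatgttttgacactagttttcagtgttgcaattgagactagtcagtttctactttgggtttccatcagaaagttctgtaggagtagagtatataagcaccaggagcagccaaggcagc
Il12a, first start (chr3:68690394-68690643, plus strand): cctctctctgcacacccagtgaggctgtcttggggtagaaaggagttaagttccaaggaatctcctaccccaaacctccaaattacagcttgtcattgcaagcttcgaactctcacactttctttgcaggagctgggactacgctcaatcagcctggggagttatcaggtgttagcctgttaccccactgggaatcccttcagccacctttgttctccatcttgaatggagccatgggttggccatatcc
Il12a, second start (chr3:68691174-68691423, plus strand): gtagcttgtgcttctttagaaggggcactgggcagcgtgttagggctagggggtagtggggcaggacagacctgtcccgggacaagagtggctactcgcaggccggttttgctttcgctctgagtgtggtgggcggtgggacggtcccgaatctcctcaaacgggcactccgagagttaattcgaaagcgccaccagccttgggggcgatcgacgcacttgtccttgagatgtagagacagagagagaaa
Il1a, Il1b and Tnf each held TATAAA, beginning 32, 31 and 29 bases before the start, and Il1a also held the AP-1 letters 12 bases before it. Over all 32851 windows of this length, 12.4% held TATAAA on either strand, 6.75% the AP-1 letters, 1.55% the cAMP response element and 5% the NF-kB consensus. The windows of Il12b and of both starts of Il12a held none of the 4 motifs, that of Il18 held TATAAA on the other strand, and those of Ebi3 and Tgfb1 each held 1 NF-kB match. In the RefSeq annotation Il1a and Il1b are neighbouring protein-coding genes of chromosome 2, and Tnf on chromosome 17 lies between the lymphotoxin genes Ltb and Lta.

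The cells carried the label's own markers on all arrays. Of 13 measured genes of conventional DCs, including Itgax, Flt3 and Zbtb46, the lowest log2 signal on any array was 9.80, against array lower quartiles of at most 5.09. Genes of other cells were also read. The brightest of their lists had mean log2 signals of 13.97 (S100a9, neutrophils), 13.39 (Lyz2, macrophages and monocytes) and 12.54 (Cd79b, B cells). In the conventional DC list the brightest was Cd74, at 14.29, and Itgax was at 12.85. The lowest signal on any array was 8.86 in the macrophage and monocyte list, 5.68 in that of neutrophils and 4.84 in that of B cells. Markers of other cells moved with the groups compared. In normal pups of Set 1 with allergen, 12 of 13 T cell and 6 of 9 NK cell markers were called lower. So were 7 of 13 macrophage and monocyte and 6 of 10 neutrophil markers. Called higher were 8 of 9 platelet, 8 of 9 erythroid, 1 of 10 neutrophil and 3 of 13 conventional DC markers. In at-risk pups 10 T cell, 6 NK cell, 5 macrophage and monocyte and 0 neutrophil markers of these lists were called lower. Called higher there were 9 platelet, 8 erythroid, 2 neutrophil and 0 conventional DC markers. Of all probe sets 11.5% were called in normal and 7.88% in at-risk pups. The summed platelet signal ran from 801 to 1010 on the naïve and from 10490 to 20229 on the stimulated arrays of Set 1. These are bulk samples, in which fewer cells of a type and less RNA per cell cannot be told apart. The part of these cells in the results below was not tested. RNA quality was read from the 3′ minus 5′ difference of the control probe sets of Actb and Gapdh. That of Actb was 1.26 on AF79 against 0.51 and 0.60 on the other naïve normal arrays. On AF123 it was 0.82, the highest of Set 2. In Set 1 that of Gapdh was 1.14 to 1.59 on naïve normal and 0.89 to 1.27 on naïve at-risk arrays. It was 0.79 to 1.41 on stimulated normal and 0.84 to 1.17 on stimulated at-risk arrays. The part of RNA quality in the results was not tested.

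**Figure D1:**
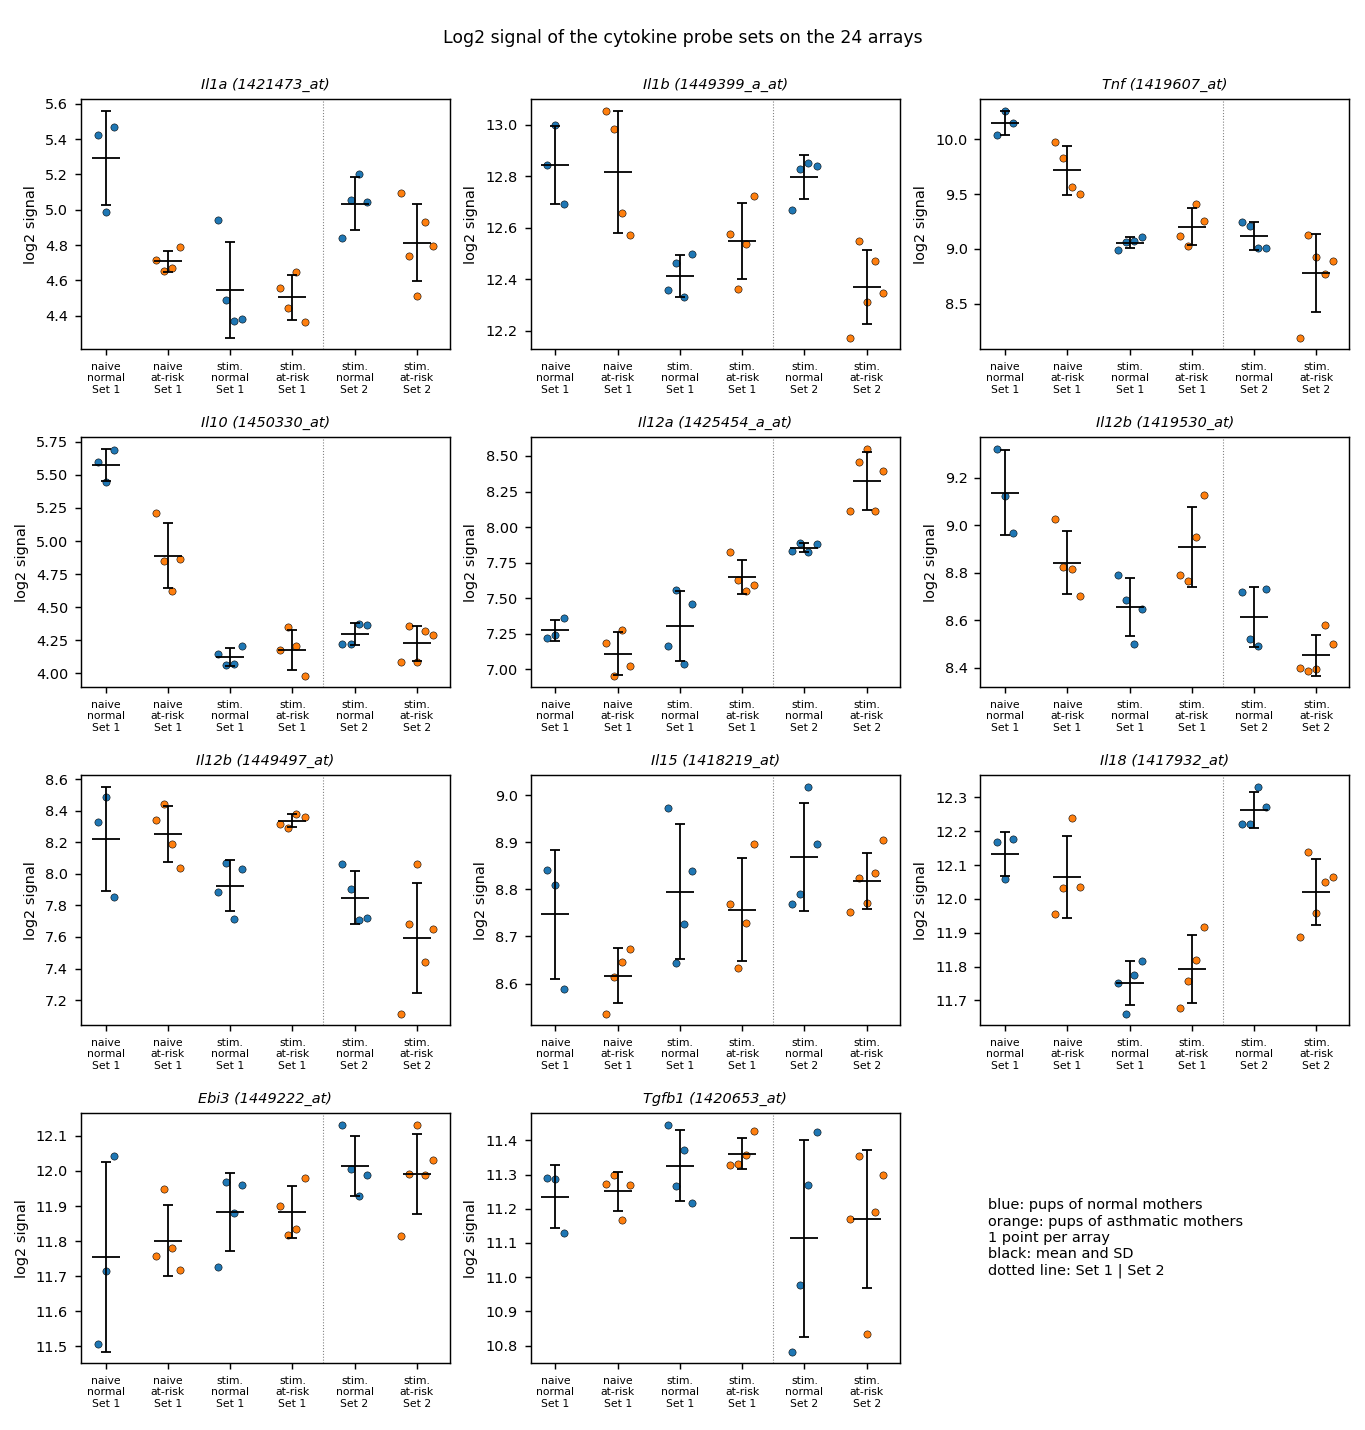
Log2 signal of the 11 cytokine probe sets on each of the 24 arrays, by group. Points are arrays, blue for pups of normal and orange for pups of asthmatic mothers, black bars are the mean and SD, and the dotted line parts Set 1 from Set 2. The y axes have different ranges, and Il10 spans 3.98 to 5.69 and Tnf 8.19 to 10.26.

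Il10, Tnf, Il1a, Il1b, Il12b and Il18 were lower in stimulated than in naïve DCs of normal pups. Il10 and Il1a were read near the lower quartile of the arrays, so the sizes of their changes depend on how low values are scaled, and the 6 changes are not ranked. This comparison asks what an early injection of OVA with alum came with in DCs, and it could be made in Set 1 alone. The labels name no group given alum or a sham injection without OVA. Effects of OVA, alum and the injection therefore cannot be told apart, and "allergen" here stands for them together. Differences are log2 fold changes, a probe set was called when its adjusted p did not exceed 0.05 and its fold reached 1.25, and all p-values are from limma with Benjamini-Hochberg adjustment over 22626 probe sets. Of the 11 probe sets 6 were called, all lower, against 11.5% of all probe sets called and 5.76% called lower. Their median change was -0.38, against 0.004 over all probe sets. The arrays of the groups did not overlap for 6 of the 11 probe sets, against 21.9% of all. These were the same 6 that were called, and both counts come from the same arrays.

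The regulatory cytokine Il10 was read low on the arrays. Its log2 signal was 5.59, 5.45 and 5.69 in naïve normal DCs and 4.15, 4.06, 4.07 and 4.21 in stimulated normal DCs. It was 5.22, 4.85, 4.63 and 4.87 in naïve at-risk DCs and 4.17, 4.35, 4.2 and 3.98 in stimulated at-risk DCs. All 8 stimulated arrays of Set 1 thus lay below all 7 naïve arrays, and among the naïve arrays the 4 at-risk ones lay below the 3 normal ones. The change with allergen was -1.46 in normal pups (SE 0.12, adjusted p = 1.5e-06) and -0.71 in at-risk pups (SE 0.11, adjusted p = 0.000457). With 32 added to each value before the log, the change was -0.69 in normal pups (adjusted p = 6.25e-06), where that of Tnf was -1.05, and -0.30 in at-risk pups, under the fold threshold.

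Tnf, the gene of tumour necrosis factor, was read on well expressed levels throughout. Its log2 signal was 10.04, 10.26 and 10.15 in naïve normal, 9.98, 9.83, 9.57 and 9.50 in naïve at-risk, 8.99, 9.06, 9.07 and 9.11 in stimulated normal and 9.12, 9.03, 9.42 and 9.25 in stimulated at-risk DCs. The naïve normal arrays lay above the naïve at-risk arrays, and both above the stimulated arrays, which overlapped each other. The change was -1.10 in normal pups (SE 0.11, adjusted p = 1.44e-05, 2.14-fold lower) and -0.51 in at-risk pups (SE 0.10, adjusted p = 0.00448, 1.43-fold lower).

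Il1a, whose product acts as an alarmin, was near the floor of the arrays. Its log2 signal was 5.43, 4.99 and 5.47 in naïve normal and 4.94, 4.49, 4.37 and 4.38 in stimulated normal DCs. The groups did not overlap, although AF84 of the stimulated group came within 0.05 of AF77. The change was -0.75 (SE 0.14, adjusted p = 0.00184) in normal pups, or -0.36 with 32 added (adjusted p = 0.00295), and in at-risk pups it was -0.20 with a 95% interval of -0.48 to 0.07 (adjusted p = 0.415).

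Il1b, the inflammasome substrate, was among the brightest probe sets, above 94.2% or more of those on its array. It read 12.84, 13.00 and 12.69 in naïve normal and 12.36, 12.46, 12.33 and 12.50 in stimulated normal DCs, all 4 of the latter lower. The change was -0.43 (SE 0.12, adjusted p = 0.0245). This call was lost without AF76 (adjusted p = 0.0549), AF77 (0.0858), AF84 (0.0526) or AF86 (0.0641). In at-risk pups it was -0.27 (SE 0.11, adjusted p = 0.175).

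Il18, the other inflammasome substrate, read 12.17, 12.06 and 12.18 in naïve normal and 11.75, 11.66, 11.78 and 11.82 in stimulated normal DCs. The change was -0.38 (SE 0.08, adjusted p = 0.00348), and the ranges were 0.24 apart. In at-risk pups Il18 read 11.96, 12.03, 12.24 and 12.03 in naïve and 11.68, 11.76, 11.82 and 11.92 in stimulated DCs. The groups did not overlap there either, and the change of -0.27 (SE 0.07, adjusted p = 0.0237) was 1.21-fold, under the fold threshold.

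Of the IL-12 subunit genes, Il12b was called in normal and Il12a in at-risk pups. The p35 gene Il12a read 7.22, 7.24 and 7.36 in naïve normal and 7.16, 7.56, 7.04 and 7.46 in stimulated normal DCs, with full overlap and a change of 0.03 (95% interval -0.22 to 0.29). In at-risk pups it read 7.19, 6.96, 7.28 and 7.02 in naïve and 7.82, 7.63, 7.55 and 7.60 in stimulated DCs, all 4 of the latter higher. The change there was 0.54 (SE 0.11, adjusted p = 0.00486, 1.45-fold higher). The p40 gene Il12b was lower in stimulated normal pups at the probe set 1419530_at (-0.48, SE 0.11, adjusted p = 0.00791), whose arrays ran from 8.97 to 9.32 in naïve and from 8.50 to 8.79 in stimulated DCs. The other Il12b probe set, 1449497_at, differed by -0.30 (SE 0.13, adjusted p = 0.161), and its naïve range of 7.85 to 8.49 overlapped the stimulated 7.71 to 8.07. It was called without AF79 (-0.48, adjusted p = 0.0107). In at-risk pups the log2 fold changes of the Il12b probe sets were 0.07 and 0.08.

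In at-risk pups 3 of the 11 probe sets were called with allergen, Il10 and Tnf lower and Il12a higher, against 7.88% of all. The groups did not overlap for 6 probe sets, lower for Il1a, Tnf, Il10 and Il18 and higher for Il12a and Tgfb1, against 17.7% of all. The nearest arrays of the 2 groups were 0.01 apart for Il1a and 0.03 apart for Tgfb1. Whether the allergen change differed between at-risk and normal pups was tested by the interaction, which by limma called 0 of the 11 against 0.0486% of all. The at-risk change was above the normal one by 0.74 for Il10 (SE 0.16, adjusted p = 0.125), 0.58 for Tnf (adjusted p = 0.24), 0.55 for Il12b at 1419530_at (adjusted p = 0.258), 0.54 for Il1a (adjusted p = 0.418) and 0.50 for Il12a (adjusted p = 0.367). Of the 11 values, 5 had an unadjusted p under 0.05, as had 1903 of all probe sets. Without AF80, the naïve at-risk array with the highest Il10, the difference for Il10 was 0.85 and called (adjusted p = 0.0206). With 32 added the difference was 0.39 for Il10 and 0.28 for Il1a.

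**Figure D2:**
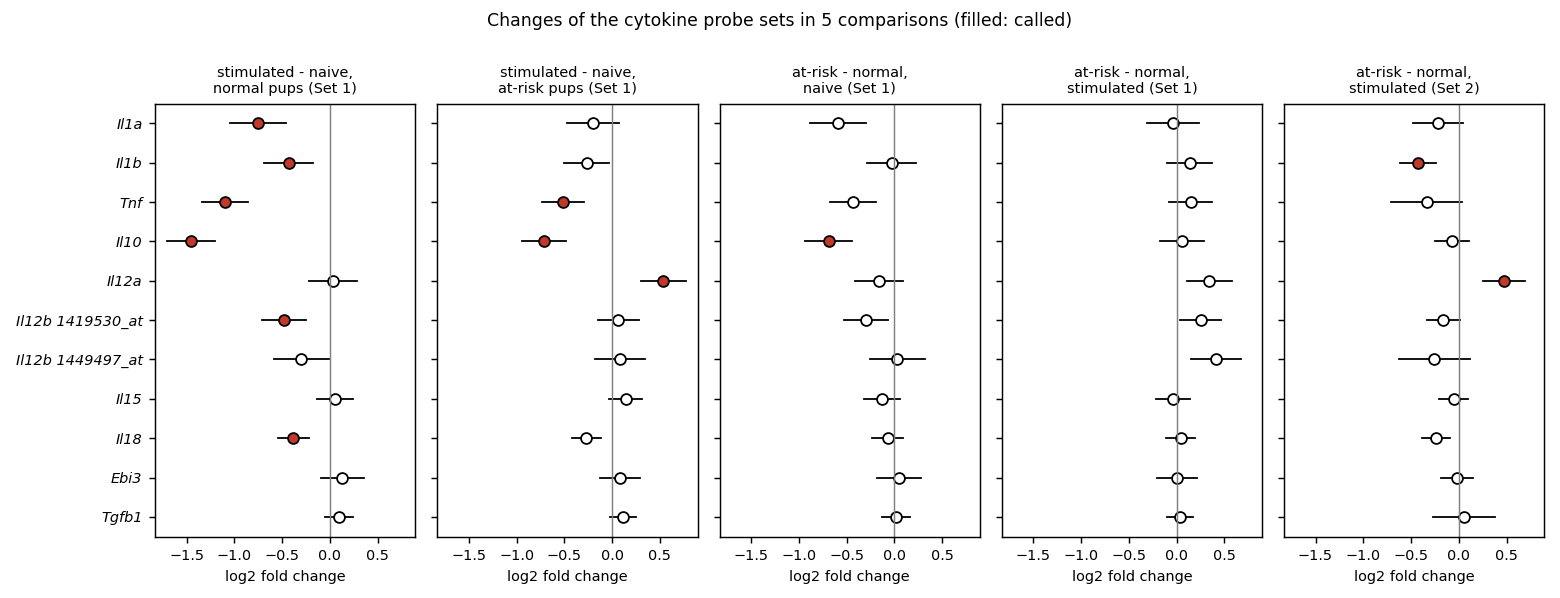
Log2 fold change (x axis) of each cytokine probe set (y axis) in 5 comparisons, with 95% intervals from limma. Filled red points were called, which holds for 6 probe sets with allergen in normal pups, 3 in at-risk pups, 1 between naïve groups and 2 between stimulated groups of Set 2. The first 4 panels share arrays of Set 1.

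Without allergen, DCs of at-risk pups had less Il10 than DCs of normal pups. This comparison asks what maternal asthma alone leaves in the DCs of the offspring. Il10 differed by -0.69 (SE 0.12, adjusted p = 0.0189), or by -0.37 with 32 added (adjusted p = 0.0167), and was the 1 probe set called of 11, against 0.34% of all. All 4 at-risk arrays, at 4.63 to 5.22, were below the 3 normal arrays, at 5.45 to 5.69. The call was lost without AF79 (adjusted p = 0.0786), AF81 (0.0533) or AF83 (0.0575) and with the 2 naïve groups alone in the fit (0.19).

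Il1a and Tnf also had no overlap between the naïve groups, which makes 3 of 11 probe sets, all lower in at-risk DCs, against 11.1% of all. Il1a read 4.71, 4.66, 4.67 and 4.79 in naïve at-risk DCs, below the normal 4.99 to 5.47, with a difference of -0.59 (SE 0.14, adjusted p = 0.0814), or -0.30 with 32 added. It was called without AF77 (adjusted p = 0.0286), the lowest normal array, and without the stimulated array AF84 (0.0325), which enters through the shared spread. Tnf differed by -0.44 (SE 0.11, adjusted p = 0.105), and AF80 at 9.98 came within 0.07 of the lowest normal array. Il12b differed by -0.29 at 1419530_at (SE 0.11, adjusted p = 0.229), and the other probe sets had differences of -0.16 to 0.05. The median of the 11 was -0.13, against 0.002 over all, and 8 of 11 were negative, against 49.3% of all. No list of cell type markers had a called gene here except the B cell list, with 1 of 8 lower, while the summed T cell signal was 15458 to 15733 in at-risk and 17362 to 18474 in normal DCs.

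After allergen, DCs of at-risk pups had more Il12a than DCs of normal pups. Over the 17 stimulated arrays with set as a term, Il12a was higher by 0.41 (SE 0.08, adjusted p = 0.0137, 1.33-fold) and was the 1 probe set called of 11, against 1.73% of all. It stayed called without any 1 of the 17 arrays, with adjusted p of 0.00906 to 0.0415, and was not called without the term for set (0.44, adjusted p = 0.299). In Set 1 the at-risk arrays, at 7.55 to 7.82, overlapped the normal arrays, at 7.04 to 7.56, by AF85 alone. The difference there was 0.34 (SE 0.11, adjusted p = 0.387). In Set 2 Il12a read 7.83, 7.89, 7.83 and 7.88 in normal and 8.11, 8.46, 8.55, 8.12 and 8.40 in at-risk DCs, with no overlap and a difference of 0.47 (SE 0.10, adjusted p = 0.0256). The within-set call of Set 2 was lost in 6 of 9 fits that left out an array, with adjusted p up to 0.084. The difference between the sets was 0.13 for Il12a, with a 95% interval of -0.21 to 0.47. Over the same 17 arrays 7 of 9 platelet, 5 of 9 erythroid, 4 of 12 endothelial, 3 of 12 stromal, 2 of 8 B cell and 2 of 10 neutrophil markers were called higher in at-risk DCs. Called lower were 2 of 9 NK cell, 1 of 13 T cell and 1 of 6 plasmacytoid DC markers. Of these lists only that of neutrophils, with 2 of 10 higher, had a called gene in Set 1, and the part of these cells in the difference of Il12a was not tested.

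Il10, lower with allergen in both kinds of pups, differed between stimulated groups by -0.01 over both sets (95% interval -0.13 to 0.11, adjusted p = 0.944). The 8 stimulated arrays of Set 1 ran from 3.98 to 4.35 and the 9 of Set 2 from 4.08 to 4.37, with the maternal groups overlapping in both.

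In Set 1, 0 of the 11 probe sets were called between stimulated at-risk and normal DCs by limma, against 0.0707% of all, and 3 of the 11 had an unadjusted p under 0.05, as had 1655 of all. Both Il12b probe sets were among the 3, with 0.41 at 1449497_at (SE 0.12, adjusted p = 0.341) and 0.25 at 1419530_at (SE 0.10). At 1449497_at the at-risk arrays, at 8.31, 8.29, 8.38 and 8.36, lay above the normal arrays, at 7.89, 8.07, 7.71 and 8.03. It was the 1 of 11 probe sets with no overlap, against 6.23% of all.

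In Set 2, Il1b was lower in at-risk DCs, where it read 12.17, 12.55, 12.31, 12.47 and 12.35 against 12.67, 12.83, 12.85 and 12.84 in normal DCs. All 5 at-risk arrays lay below all 4 normal arrays. The difference was -0.43 (SE 0.08, adjusted p = 0.0183, 1.34-fold lower), and it was lost as a call without AF119 (adjusted p = 0.0713) or AF120 (0.0695). With Il12a this made 2 of 11 called, against 4.62% of all. Il18 also had no overlap, at 11.89 to 12.14 in at-risk and 12.22 to 12.33 in normal DCs, with a difference of -0.24 (SE 0.07, adjusted p = 0.0699). These are 3 of 11 probe sets with no overlap, 2 lower and 1 higher, against 10.1% of all. Of 13 macrophage and monocyte markers 4 were called lower in the same comparison, with a summed signal of 54982 to 61522 in at-risk and 70158 to 74406 in normal DCs. Also called lower were 7 of 9 NK cell, 6 of 13 T cell, 3 of 6 plasmacytoid DC and 1 of 10 neutrophil markers. Called higher were 8 of 9 platelet, 7 of 12 stromal, 6 of 12 endothelial, 4 of 8 B cell, 3 of 9 erythroid and 1 of 7 mast cell and basophil markers. Of 13 conventional DC markers 1 was called higher and 1 lower.

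The maternal difference of Il1b differed between the sets, by -0.56 (Set 2 minus Set 1, SE 0.12, adjusted p = 0.0218), the 1 call of 11 against 1.79% of all. In Set 1 the difference had been 0.14 (95% interval -0.10 to 0.37), with at-risk arrays at 12.58, 12.36, 12.54 and 12.72 and normal arrays at 12.36, 12.46, 12.33 and 12.50. Without AF84, AF86, AF91, AF119 or AF120 the adjusted p of the difference between sets ran from 0.0504 to 0.0586. Il12b at 1449497_at had a larger size of difference between the sets, -0.67, with a larger error (SE 0.20, adjusted p = 0.11), and was called without AF125 (adjusted p = 0.0154). Its Set 2 at-risk arrays spread from 7.11 on AF123 to 8.07 on AF125, against a spread of 8.29 to 8.38 in Set 1. AF123 also had the lowest Tnf of Set 2, at 8.19, and the lowest Il1b.

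Il1a and Il10 lay near the lower quartile of their arrays. A group mean less than 0.5 above the lower quartile was taken as near. Il1a was near in 6 of 6 groups, with group means from 0.51 below it (-0.51) to 0.24 above it. Il10 was near in 5 of 6 groups, and the naïve normal arrays, at 0.39 to 0.60 above it, had a mean of 0.53, over this limit. The stimulated arrays of Il10 lay below the lower quartile on every array, by -0.63 to -1.04, and above 8.3% to 15.9% of the probe sets of their array. With a filter at the 40th percentile of mean signal, Il1a and Il10 were not tested, and the other 9 probe sets were kept. Il12a, the next in distance, was 1.87 or more above the lower quartile on every array.

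**Figure D3:**
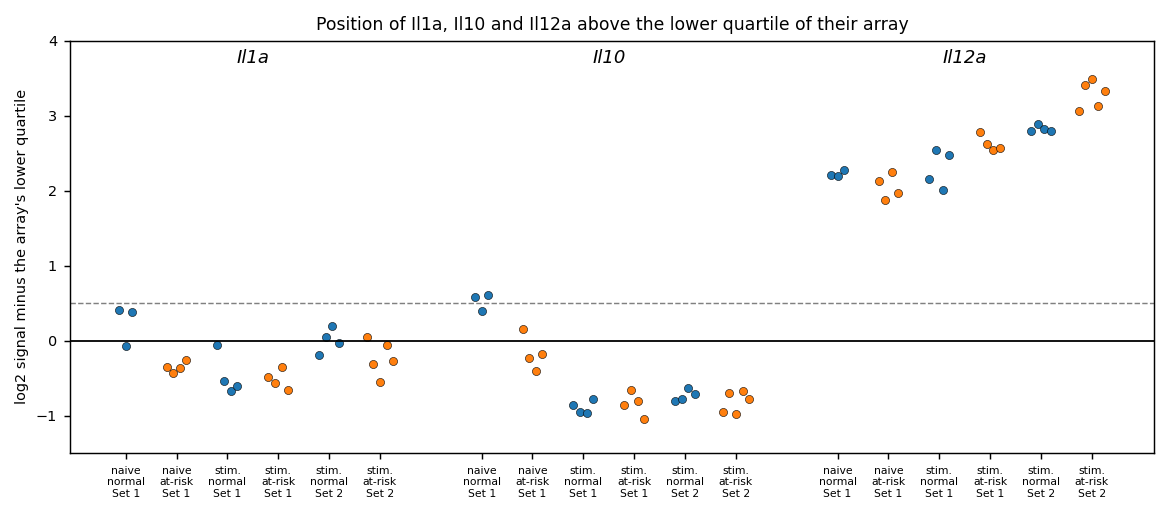
Log2 signal of Il1a, Il10 and Il12a minus the lower quartile of the same array (y axis) on each of the 24 arrays, by group (blue, pups of normal mothers, orange, pups of asthmatic mothers). The solid line is the lower quartile and the dashed line the limit of 0.5 above it. Il10 exceeds the limit on 2 of the 3 naïve normal arrays and on no other array, and Il12a is at 1.87 or more throughout.

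Il15, Ebi3 and Tgfb1 were not called in any comparison. Il15 ran from 8.54 to 9.02 over the 24 arrays, and its changes in the 5 comparisons between 2 groups lay between -0.13 and 0.14, with 95% intervals that reached from -0.32 to 0.32. Ebi3, the partner chain of IL-27 and IL-35, ran from 11.51 to 12.13 with changes of -0.02 to 0.13 and intervals within -0.21 to 0.36. Tgfb1 ran from 10.78 to 11.45 with changes of 0.02 to 0.11 and intervals within -0.27 to 0.38. The widest intervals of Tgfb1 were those of Set 2, where normal arrays spread from 10.78 to 11.43. Changes larger than these bounds are outside the intervals, and smaller ones are not excluded.

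The receptors and processing genes of the same pathways were read from lists of their own. Of 13 measured genes of IL-1 and IL-18 reception and processing, 5 were called lower with allergen in normal pups and 5 in at-risk pups, and none higher, where 11.5% and 7.88% of all probe sets were called in either direction. The shares of the other lists below are to be read against the same values. Il1r2, the decoy receptor of IL-1, fell by 1.63 in normal (SE 0.21, adjusted p = 0.000123) and by 1.01 in at-risk pups (SE 0.20, adjusted p = 0.00349). Il18r1, the binding chain of the IL-18 receptor, changed by -1.02 and -0.88, and Il18bp, its soluble antagonist, by -0.64 and -0.42. Nlrp3, the inflammasome sensor that leads to the cutting of IL-1β and IL-18, changed by -0.72 in normal (SE 0.11) and by -0.37 in at-risk pups (SE 0.11, adjusted p = 0.037). The fifth gene was the antagonist Il1rn in normal pups, at -0.58 (SE 0.13), and the second IL-18 receptor chain Il18rap in at-risk pups, at -1.01 (SE 0.23). The median of the 13 genes was -0.23 in normal and -0.13 in at-risk pups, against 0.004 and -0.01 over all probe sets.

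Of 8 genes of IL-10 reception and signaling, 2 were called lower in normal and 1 in at-risk pups with allergen, the latter close to the 7.88% of all. Socs3, an inhibitor of cytokine receptors induced by Stat3, changed by -1.54 (SE 0.11, adjusted p = 7.7e-07) and -1.01 (SE 0.11, adjusted p = 1.84e-05). It was the 1 gene of these pathway lists that was also called lower in naïve at-risk DCs, at -0.71 (SE 0.11, adjusted p = 0.0148). Bcl3 was lower in normal pups, at -0.47. Of 8 genes of TNF reception and processing, Tnfaip3, which encodes the NF-kB inhibitor A20, was the 1 called, close to the 11.5% and 7.88% of all, at -1.09 in normal (SE 0.27) and -1.07 in at-risk pups (SE 0.25).

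Of 11 partners and receptors of the IL-12 family the same 3 were called lower in both kinds of pups, against 11.5% of all called in normal and 7.88% in at-risk pups. Il12rb1, the receptor chain shared by IL-12 and IL-23, changed by -0.43 and -0.42, Il27ra, the IL-27 receptor, by -1.14 and -0.90, and Stat4, which transmits the IL-12 signal, by -1.29 and -0.90. Il12rb1 ran from 4.81 to 5.55 in Set 1, against array lower quartiles of 4.99 to 5.09. The sizes of its changes thus depend on how low values are scaled. Of 6 genes of IL-15 reception and signaling 2 were called in normal and 1 in at-risk pups. Il2rb, the shared β chain of the IL-2 and IL-15 receptors, changed by -1.42 and -1.29, and Jak3 was called in normal pups, at -0.42. Il18r1, Il18rap, Il2rb and Stat4 are also expressed by NK and T cells. In normal pups 6 of 9 NK cell and 12 of 13 T cell markers were called lower with allergen, and in at-risk pups 6 and 10. The part of these cells in the changes of these and the other pathway genes was not tested.

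Of 18 measured genes of the TGF-β list, 4 were called with allergen in normal pups (11.5% of all) and 3 in at-risk pups (7.88% of all). In each, 14 of 18 had a negative value, against 49.1% of all probe sets in normal and 54.7% in at-risk pups. The medians of the list were -0.10 and -0.06, against 0.004 and -0.01 over all. Called higher in both were Ltbp1, which holds latent TGF-β in the matrix, by 2.04 (SE 0.23) and 2.71 (SE 0.22, adjusted p = 1.37e-06), and Thbs1, an activator of latent TGF-β that platelets also carry, by 0.72 (SE 0.21) and 1.83 (SE 0.20). Called lower were the inhibitor Smad7, at -0.77 and -0.61, and in normal pups Tgfb3, at -0.55. Tgfb3 read 4.19 to 4.76 in naïve and 3.79 to 4.09 in stimulated normal DCs, under array lower quartiles of 4.99 to 5.09. The size of its change thus depends on how low values are scaled. The platelet markers rose in the same arrays by a median of 3.52 and 3.83, and the part of platelets in these changes was not tested.

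**Figure D4:**
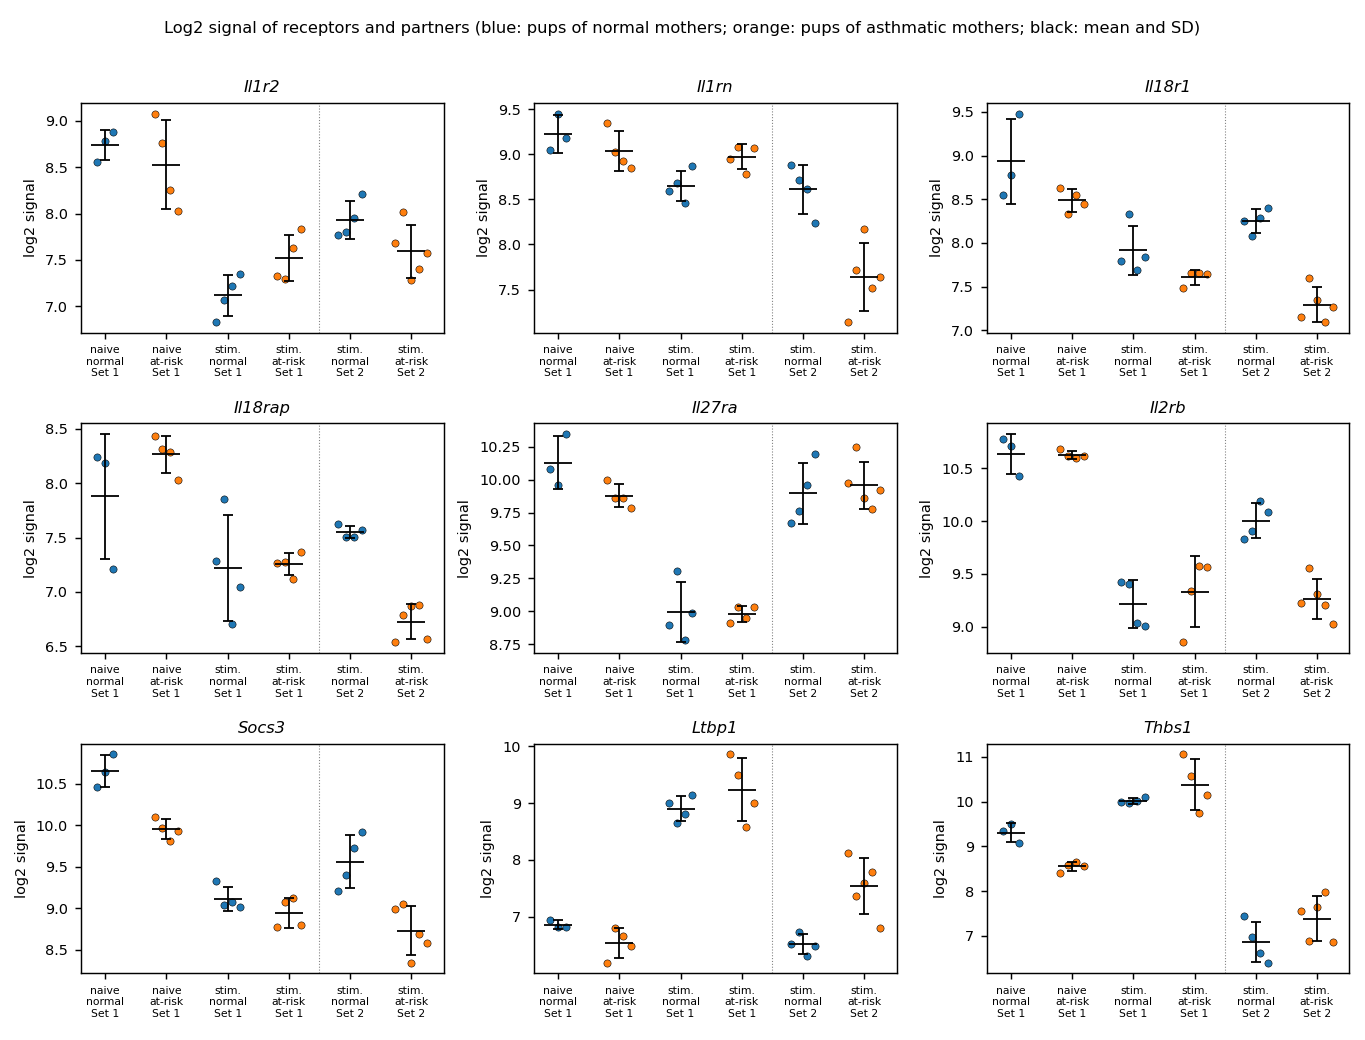
Log2 signal (y axis) of 9 receptors and partners of the cytokines on the 24 arrays, by group, with 1 point per array, blue for pups of normal and orange for pups of asthmatic mothers, and the mean and SD in black. In Set 1, Il27ra and Il2rb are lower and Ltbp1 is higher on every stimulated than on every naïve array, and in Set 2 Il18r1 and Il1rn are lower on every at-risk than on every normal array.

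Between stimulated groups, 5 of 13 genes of the IL-1 and IL-18 list were called lower in at-risk DCs of Set 2 and 8 were not called, against 4.62% of all called. Il18r1 changed by -0.96 (SE 0.11, adjusted p = 0.00101), Il18rap by -0.82 (SE 0.09), Il1rn by -0.97 (SE 0.19, adjusted p = 0.0197), Il18bp by -0.47 and Il1rap, the shared accessory chain, by -0.37. Among the markers given above for Set 2, 7 of 9 NK cell and 6 of 13 T cell markers were lower and 8 of 9 platelet markers higher. The part of these cells in the differences of this paragraph was not tested. In the other pathway lists most genes were not called in Set 2. Lower in at-risk DCs were Socs3 (-0.83), 1 of 8 IL-10 genes, Stat4 (-0.53), 1 of 11 IL-12 family genes, and Il2rb (-0.74), 1 of 6 IL-15 genes. Of 18 TGF-β genes, Tgfbr1 (-0.54) was the 1 called lower and Ltbp1 (1.02) the 1 called higher. Of 8 genes of TNF reception and processing 0 were called. In Set 1 none of the 13 was called, and the maternal difference itself differed between the sets for Il1rn (-1.30, SE 0.24, adjusted p = 0.0105) and Il18bp (-0.70, SE 0.13, adjusted p = 0.012). Over both sets Il18r1 differed by -0.65 (SE 0.12, adjusted p = 0.00945) and the TGF-β receptor gene Tgfbr1 by -0.36 (SE 0.07, adjusted p = 0.0137).

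The genes whose log2 signal followed each cytokine most closely over the 24 arrays, after the mean of each set was subtracted, differed between the members. The arrays share groups, so these values of r describe the pattern and carry no test. Il10 was followed by Phlda1 (r = 0.945), the itaconate-making enzyme gene Acod1 (0.933) and the transcription factor gene Egr2 (0.929), Tnf by Sdhaf1 (0.916), the chemokine gene Ccl4 (0.912) and the urokinase receptor gene Plaur (0.908), and Il1a by Clvs1 (0.877), Phlda1 (0.87) and Bmp2k (0.862). Il1b was followed by Cyp4f18 (0.893), Slfn4 (0.89) and Clec4d (0.872), and Il18 by Igf1 (0.955), the complement gene C1qb (0.944) and Prxl2b (0.938). Il12a was followed by Mphosph9 (0.874), Myl4 (0.816) and Cort (0.803), and Il12b at 1419530_at by Tnni1 (0.774), Ifit2 (0.749) and Gbp2b (0.748). Among the cytokines themselves Tnf and Il10 were closest (r = 0.852), followed by Tnf with Il1b (0.797), while Il1a and its neighbour Il1b had 0.396 and Il12a with Il12b had -0.142 at 1419530_at and 0.12 at 1449497_at.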

How the data were processed

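Splenic CD11c+ DCs were measured on 24 mouse expression arrays in 6 groups. The authors made the deposited intensity values with RMA (version not stated in the sources used here), each set apart by the methods, and deposited them on a linear scale with 1 value per Affymetrix probe set. All columns had a sample (0 without) and none was identical to another. Groups and array numbers came from the labels, and sets from the array numbers and the set sizes in the methods, which state that 1 array per set was left out. Log2 was taken with no pseudocount. The 64 control probe sets were left out. Gene symbols came from the platform annotation (20380 probe sets with 1 symbol, 691 with several, 1555 with none).

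Tests used lmFit and eBayes of limma 3.58.1 (R 4.3.3), 1 mean per group over the 15 arrays of Set 1 or the 9 of Set 2, and with set as a term over the 17 stimulated arrays. The allergen comparisons and the naïve comparison share arrays, so their values stand side by side only. Precision is limited by 3 to 5 arrays a group, whose median SD over probe sets was 0.10 to 0.15 on the log2 scale. All probe sets of the cytokines were named, then from each pathway list the called genes, at most the 4 with the smallest adjusted p in a comparison (beyond this, Il1rap was named after its value was seen), and the 3 genes most like each called cytokine. A gene of a list was read from its brightest probe set. The cytokines, lists and tests were chosen with earlier results of these data known. Fits were tested on simulated data. Alternatives were quantile normalization, median centring, a filter on dim probe sets, 32 added before the log, trend and robust, array weights, no fold threshold, other samples in the fit, no term or a random block for set, and each array left out. Sequences and neighbours came from RefSeq (GRCm38.p6). Figures were made with Python 3.11.15, pandas 2.3.3 and matplotlib 3.10.9.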

Additional observations from a re-analysis of the deposited data

Results flagged for a closer look

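Of 55 groups of 4 or 5 arrays tested for a cytokine, 1 had an array whose gap to the nearest other exceeded the 95% limit for such gaps, where chance gives about 1 in 20. It was Il1b in stimulated normal DCs of Set 2, where AF118 read 12.67 and the other 3 arrays 12.83 to 12.85. The called maternal difference of Il1b in Set 2 was kept without AF118.

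The maternal difference of Il1b in stimulated DCs was unlike in the 2 sets by the interaction test, with -0.56 for Set 2 minus Set 1 (adjusted p = 0.0218 from limma). All 5 at-risk arrays of Set 2 were below its normal arrays, while the 4 at-risk arrays of Set 1 overlapped theirs. The sets also differ in RNA amplification, and the part of this in the difference was not tested.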

How the results depend on the processing

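Of 793 recomputed values of 34 results, 756 kept their direction and their side of the threshold, or for counts stayed within 1.5 times, 30 changed with an array left out and 7 with another setting. The number of cytokine probe sets called between naïve groups was 1, 0 with dim probe sets left out, since Il10 was then not tested, 0 with only the 2 groups in the fit, and 0 to 2 with an array left out. Between stimulated groups it was 1, and 0 with no term for set. In Set 2 it was 2, and 0 to 2 with an array left out. For the difference of maternal effects it was 0, and 0 to 1 with an array left out. For the difference between sets it was 1, 2 with array weights, and 0 to 2 with an array left out. The counts with allergen, 6 and 3, stayed within 1.5 times. The difference of Il10 between stimulated groups, -0.01, changed sign in 6 of these, to 0.0128 with array weights, and ran from -0.0394 to 0.0136 with an array left out. Il12b at 1449497_at in normal pups with allergen was called with array weights (-0.45, adjusted p = 0.0115), as was its difference between sets (-0.67, adjusted p = 0.00976). The causes were not tested. No paired analysis was possible because the labels give no replicate numbers shared between groups. Signal over background was not given, and Il1a and Il10 were read near the lower quartile of the arrays.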
